A study of Bos taurus with 9 samples.

Results

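In control MDBK cells, an established epithelial line from bovine kidney, the places where acetylated lysine 9 of histone H3 (H3K9ac) was detected were compared with the places where acetylated lysine 27 (H3K27ac) was detected. The members were all peaks of the control H3K9ac list (74125 peaks) and of the control H3K27ac list (94617 peaks), which together made 168742 of the 673926 peaks in the 8 lists of the series. A peak was placed in the class with both marks when it shared at least 1 bp with a peak of the other list, and otherwise it was called H3K9ac alone or H3K27ac alone. The series is chromatin immunoprecipitation sequencing (ChIP-seq) of unmodified MDBK cells with antibodies to H3K9ac, H3K27ac, RNA polymerase II (Pol II) and the repressive mark H3K9me3. Control cells received no butyrate, and treated cells received 5 mM butyrate, an inhibitor of histone deacetylases, for 24 h. Each group had 1 library, both acetyl antibodies were rabbit polyclonal antibodies, and all peaks were called against 1 shared input library, so no difference between the marks had a replicate check. The intervals below are 95% intervals for counting error only. The lists give the position of each peak with no height or score, and the reads behind each peak are not in them. The study's mapping summary gives more reads to the control H3K9ac library than to the control H3K27ac library.

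The tails of histones are acetylated by enzymes that act preferentially on different lysines. GCN5 and PCAF are the main enzymes for H3K9ac, and CBP and p300 are the main enzymes for H3K27ac. Both marks are removed by histone deacetylases, are read by bromodomain proteins, and are found on nucleosomes that flank active promoters and enhancers. H3K9ac is usually described as strongest at active promoters, and H3K27ac is used to tell active enhancers from poised ones. Positions are given on the cattle assembly UMD3.1.1, for which no gene annotation was used here, so regions are named by position and not by gene.

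H3K9ac peaks lay on H3K27ac more often than the reverse. Of the H3K9ac peaks, 44728 met an H3K27ac peak, which is 60.3% (Wilson interval 59.99 to 60.7%), and 29397 did not. Of the H3K27ac peaks, 43050 met an H3K9ac peak, which is 45.5% (45.2 to 45.8%), and 51567 did not. For comparison, the H3K27ac list covered 1.43% and the H3K9ac list 1.09% of the 2660 Mb spanned by the 30 nuclear chromosomes. The H3K27ac list thus held more single-mark peaks, by a log2 ratio of 0.81 (0.79 to 0.83) in number. Keeping only the 74125 longest H3K27ac peaks, which equals the size of the H3K9ac list, brought this ratio to 0.11 and the shares with both marks to 55.7% of H3K9ac and 52.4% of H3K27ac. The gap between the 2 shares was thus narrower against this shortened list.

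In bases the share was also larger for H3K9ac. The marks shared 16.6 Mb, which was 57.2% of the H3K9ac bases and 43.7% of the H3K27ac bases. The shared bases are the same for both marks, so these shares differ only because the H3K27ac list covered more bases. The difference in bases is therefore no separate check on the difference in peaks. The bases under either mark came to 50.3 Mb, or 1.89% of the span, and 32.9% of them carried both. Within the class with both marks the overlap was usually deep. H3K27ac covered a median of 91.7% of such an H3K9ac peak, while H3K9ac covered a median of 77.4% of such an H3K27ac peak. Fully covered peaks made up 39.9% of the H3K9ac class and 19.5% of the H3K27ac class.

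Joining every set of overlapping peaks of the 2 marks into a joint region gave 120326 regions. Both marks were present in 39362 of them (32.7%, 32.4 to 33.0%), H3K9ac alone made 24.4% and H3K27ac alone made 42.9%. Most regions with both marks were simple, since 32382 (82.3%) held exactly 1 peak of each. In 3568 regions a single H3K27ac peak bridged 2 or more H3K9ac peaks, up to 6, and in 2465 a single H3K9ac peak bridged 2 or more H3K27ac peaks, up to 4. A further 947 regions held 2 or more peaks of each mark. Bridging by H3K27ac was the more frequent form, and in these regions the bases under H3K27ac exceeded those under H3K9ac in 79.6% of cases. A bridging peak also covers the gaps between the peaks it joins, so this share is not independent of how the regions were chosen. Where H3K9ac was the bridging mark, H3K27ac still covered more bases in 46.2% of regions.

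Peaks with both marks were longer than single-mark peaks, for each mark. The median H3K9ac peak was 363 bp (360 to 366) with H3K27ac and 249 bp (248 to 250) without it, a log2 ratio of 0.54 (0.53 to 0.56). The median H3K27ac peak was 407 bp (404 to 410) with H3K9ac and 244 bp (243 to 245) without it, a log2 ratio of 0.74 (0.72 to 0.75). Single-mark peaks of the 2 lists were therefore nearly equal in length, and the lists differed in the class that carried both. The shortest length in the lists, 199 bp, was also concentrated in single-mark peaks. It was the length of 14.5% of H3K9ac-alone and 22.2% of H3K27ac-alone peaks, against 4.04% and 6.02% of those with both marks. Since longer peaks offer more bases to overlap, length and meeting the other mark are not independent measures.

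Long peaks almost always carried both marks. The share of H3K9ac peaks with H3K27ac was 40.4% at 199 to 249 bp, 61.9% at 300 to 399 bp, 87.0% at 500 to 749 bp and 98.9% at 1000 to 1999 bp. The share of H3K27ac peaks with H3K9ac was 23.5%, 47.1%, 77.2% and 97.4% at the same lengths. H3K27ac had the lower share in each of the bins under 2000 bp, and beyond 2000 bp all 164 H3K9ac peaks and all 570 H3K27ac peaks met the other mark. Of the peaks of at least 1000 bp, only 26 of 2572 for H3K9ac and 106 of 4595 for H3K27ac were alone.

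**Figure D1:**
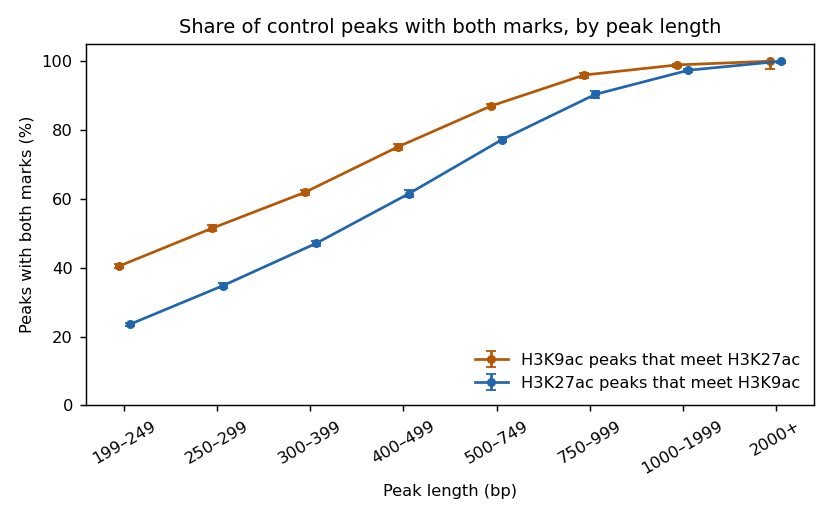
Percent of control peaks that met a peak of the other acetyl mark (vertical axis) in 8 bins of peak length in bp (horizontal axis), for H3K9ac and H3K27ac, with 95% Wilson intervals. Both lines rise with length, from 40.4% and 23.5% in the shortest bin to 100% in the longest, and the H3K27ac line lies lower until 2000 bp.

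The longest peaks of each class, named by a fixed rule, show these extremes. The longest H3K9ac peak, 5840 bp on chromosome 27 (15051012 to 15056851), lay wholly inside the longest H3K27ac peak, 7401 bp (15049834 to 15057234), which also met 2 more H3K9ac peaks. On chromosome 4 the H3K9ac peak of 4610 bp (95463055 to 95467664) lay inside an H3K27ac peak of 7286 bp (95462258 to 95469543) that met 4 H3K9ac peaks. Both sites thus had a broad H3K27ac domain over a narrower or broken H3K9ac signal. The third H3K27ac peak, 7169 bp on chromosome 19 (11022539 to 11029707), met 6 H3K9ac peaks that covered 83.4% of it. The peaks without the other mark were far shorter. The longest H3K9ac-alone peak measured 1752 bp on chromosome 24 (43486691 to 43488442), at 2043 bp from the nearest H3K27ac peak. The longest H3K27ac-alone peak measured 1934 bp on chromosome 3 (49923831 to 49925764), at 1205 bp from the nearest H3K9ac peak. Of the 5 longest alone peaks, 3 for H3K9ac and 2 for H3K27ac lay within 1 kb of the other mark, the nearest of them at 303 bp and 331 bp.

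Where each mark had a single peak, H3K27ac was slightly the wider. In the 32382 one-to-one pairs the median width was 345 bp for H3K9ac and 388 bp for H3K27ac, and the median log2 ratio of the widths in a pair was 0.12 (0.11 to 0.12), or 1.08-fold. H3K27ac was wider in 58.5% of pairs, H3K9ac was wider in 39.7%, and the widths were equal in 1.74%. The difference is small beside the spread among pairs, whose quartiles were -0.26 and 0.55. A width at least 2-fold that of the partner was seen for H3K27ac in 10.6% of pairs and for H3K9ac in 5.75%. The ratio was above 0 on each of the 30 nuclear chromosomes, from 0.07 on chromosome 6 to 0.19 on chromosome 13 and 0.21 on the X chromosome.

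The centres of the 2 peaks of a pair lay a median of 68 bp apart and within 100 bp in 63.4% of pairs. In joint regions up to 299 bp this share was 100%, which the overlap and the shortest peak length fix in advance. It was 48.7% at 500 to 749 bp, 43.6% at 750 to 999 bp, 45.3% at 1000 to 1999 bp and 56.3% beyond. The shared bases were a median of 61.9% of the bases under either peak. An H3K9ac peak lay inside its H3K27ac partner in 35.9% of pairs, and an H3K27ac peak lay inside its H3K9ac partner in 17.7%. Staggered pairs, in which each peak extended past the other at 1 end, made 45.3%, and identical borders made 1.05%. Nesting was therefore more often that of H3K9ac inside H3K27ac.

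The wider the site, the more often H3K27ac was the wider mark. In pairs whose joint region was 199 to 249 bp, H3K27ac was wider in 40.4% and H3K9ac in 43.2%, with a median log2 ratio of 0. The share with H3K27ac wider was 54.6% at 300 to 399 bp, 59.7% at 500 to 749 bp, 66.8% at 750 to 999 bp and 73.8% at 1000 to 1999 bp. In the 87 pairs of 2000 bp or more it was 80.5% (70.9 to 87.4%). The median ratio did not follow this order to the end, since it was 0.27 (0.24 to 0.30) at 1000 to 1999 bp and 0.10 (0.06 to 0.19) at 2000 bp or more. In the widest sites H3K27ac was thus wider more often but by less, and H3K9ac had a median width of 2006 bp there against 2162 bp for H3K27ac. Joint length includes the wider peak, so it is not independent of the ratio.

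**Figure D2:**
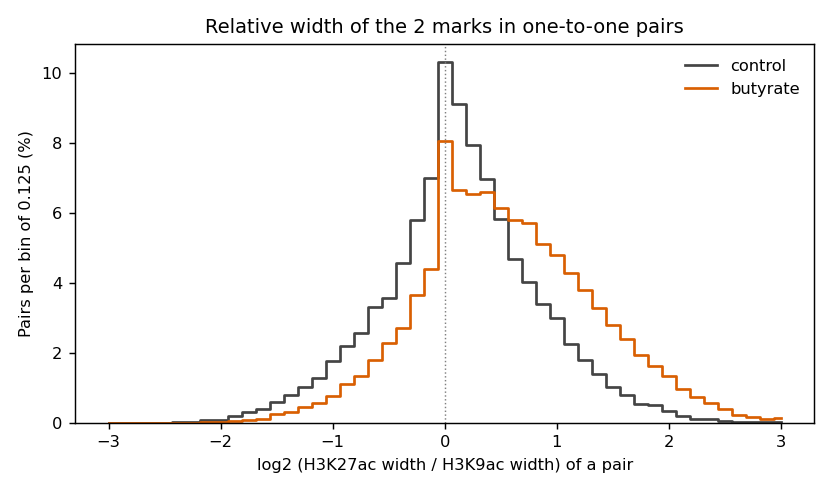
Percent of one-to-one pairs (vertical axis) in bins of 0.125 of the log2 ratio of H3K27ac width to H3K9ac width (horizontal axis), for 32382 control pairs and 51706 butyrate pairs, with values beyond 3 in the outermost bins. The control curve is nearly centred on 0, with a median of 0.12, and the butyrate curve is shifted to the right, with a median of 0.48.

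Read from either mark, wide peaks had wide partners. H3K9ac peaks of 199 to 249 bp had H3K27ac partners with a median of 301 bp, and those of 1000 to 1999 bp had partners of 1205.5 bp. H3K27ac peaks of 199 to 249 bp had H3K9ac partners with a median of 280 bp, and those of 1000 to 1999 bp had partners of 916.5 bp. At 500 to 749 bp an H3K9ac peak had a partner of 548 bp while an H3K27ac peak had a partner of 430 bp, so a given H3K27ac width went with less H3K9ac than the reverse. The most unequal pairs were a 265 bp H3K9ac peak inside a 2299 bp H3K27ac peak on chromosome 14 (32786576 to 32788874), a width ratio of 8.68, and a 226 bp H3K27ac peak over the left border of a 1442 bp H3K9ac peak on chromosome 5 (40914327 to 40915768), a ratio of 6.38.

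Single-mark peaks were not far from the other mark. An H3K9ac-alone peak lay a median of 1.47 kb (1.43 to 1.51) from the nearest H3K27ac peak, and an H3K27ac-alone peak lay a median of 2.15 kb (2.09 to 2.21) from the nearest H3K9ac peak. The other mark was within 1 kb of 41.9% of H3K9ac-alone and 37.3% of H3K27ac-alone peaks, and within 10 kb of 83.2% and 73.2%. Distant peaks were mostly H3K27ac, since 2070 H3K27ac-alone peaks (4.01%) and 227 H3K9ac-alone peaks (0.77%) lay more than 100 kb from the other mark. These distant peaks were also among the shortest, with medians of 217 bp (213 to 221) for H3K27ac and 236 bp (228 to 253) for H3K9ac, against 261 bp and 258 bp at 201 to 1000 bp. The order of the medians depended on which peaks were kept. It reversed when the H3K27ac list was cut to its 74125 longest peaks, to 1951 bp for H3K9ac-alone and 1587.5 bp for H3K27ac-alone peaks. It also reversed with a minimum length of 500 bp in both lists, to 7765 bp and 7421 bp.

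Peaks with both marks were packed more closely than single-mark peaks. The median gap to the next peak of the same mark was 388 bp (380 to 396) for H3K9ac with both and 1596 bp (1548 to 1638) for H3K9ac alone. It was 264 bp (259 to 268) for H3K27ac with both and 1129 bp (1102 to 1161) for H3K27ac alone. A peak of the same mark lay within 1 kb of 71.3% of H3K9ac and 78.1% of H3K27ac peaks with both marks, against 40.5% and 47.9% of those alone.

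**Figure D3:**
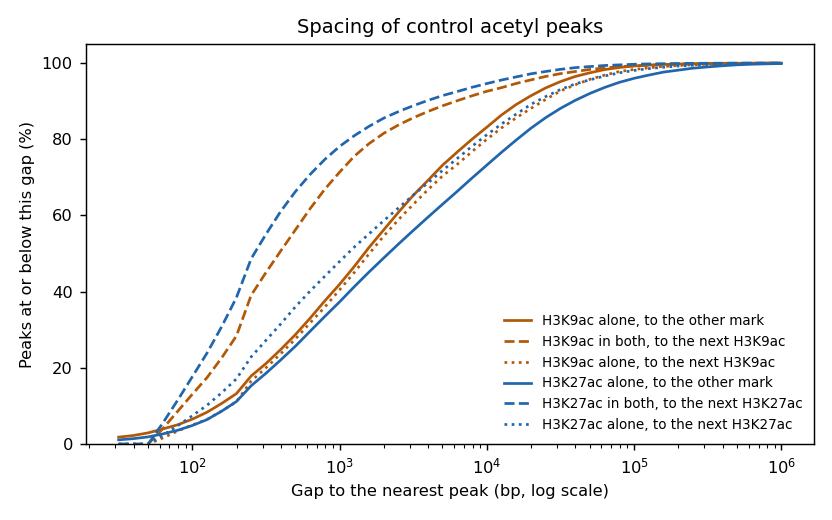
Percent of control peaks (vertical axis) whose gap to the nearest peak was at or below the value on the horizontal axis (bp, log scale), for single-mark peaks to the other mark (solid), peaks with both marks to the next peak of the same mark (dashed) and single-mark peaks to the next peak of the same mark (dotted). The dashed lines lie above the others over most of the range, with medians of 388 bp for H3K9ac and 264 bp for H3K27ac.

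When peaks of either mark less than 1 kb apart were joined, 67779 clusters resulted, and 27011 of them (39.9%) held both marks. Clusters with both marks had a median of 3 peaks and a length of 1405 bp, whereas clusters of 1 mark were mostly lone peaks (91.4% of 14663 for H3K9ac and 88.6% of 26105 for H3K27ac). The clusters with both marks took in 45.3% of the H3K9ac-alone and 42.0% of the H3K27ac-alone peaks. Many peaks without direct overlap thus sat in the neighbourhood of the other mark. In 3580 clusters (13.3%) the marks were neighbours that did not overlap anywhere. At the outer ends of clusters with both marks, H3K27ac reached farthest in 53.7% (53.3 to 54.2%), H3K9ac in 41.5% (41.0 to 41.9%), and the borders coincided in 4.79%. These clusters held 64683 H3K27ac and 58034 H3K9ac peaks, so H3K27ac also had more peaks that could lie at an end. The 3 longest clusters, picked after their values were seen, spanned 31.7 kb on chromosome 19 (11018149 to 11049858), 28.8 kb on chromosome 6 (20454735 to 20483487) and 26.3 kb on chromosome 8 (40499302 to 40525595). Within the first, 22 H3K9ac peaks covered 16.4 kb and 20 H3K27ac peaks covered 26.1 kb.

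The balance of the marks varied among chromosomes, and the X chromosome lay at the end of this range. The share of H3K9ac peaks with both marks ran from 56.4% (54.6 to 58.3%) on chromosome 9 to 63.8% (61.8 to 65.8%) on chromosome 19, and it was 64.3% (61.0 to 67.5%) on the X chromosome. The share of H3K27ac peaks with both marks ran from 39.5% (37.4 to 41.7%) on chromosome 21 to 48.9% (47.6 to 50.1%) on chromosome 5. On the X chromosome it was 32.7% (30.4 to 35.0%), below the interval of each autosome. Correspondingly the X chromosome held 1.86 (1.71 to 2.02) H3K27ac peaks per H3K9ac peak, while autosomes held 1.16 (1.12 to 1.20) on chromosome 5 to 1.49 (1.38 to 1.61) on chromosome 25.

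The X chromosome was poor in all classes, but least so in H3K27ac alone. Relative to the density over all nuclear chromosomes, it held 0.22 of the H3K9ac and 0.21 of the H3K27ac peaks with both marks, 0.18 of the H3K9ac-alone and 0.37 of the H3K27ac-alone peaks. Its 852 H3K9ac and 1583 H3K27ac peaks are few, and the number of X chromosomes in the line was not examined. Among autosomes, chromosome 5 had the highest density of H3K9ac alone, at 1.72, against 1.42 for H3K27ac alone. It was also the densest autosome for H3K9ac (1.63) and H3K27ac (1.62) peaks with both marks. Chromosome 19 had the highest density of H3K27ac alone, at 1.53, against 1.17 for H3K9ac alone. Chromosome 14 had a density of H3K9ac alone (1.38) above that of H3K9ac with both (1.18), and chromosome 29 had the lowest density of H3K9ac alone (0.59). The mitochondrial sequence carried 11 H3K9ac peaks over 73.7% of its length and 14 H3K27ac peaks over 51.5%, although mitochondrial DNA is not packed in histones.

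**Figure D4:**
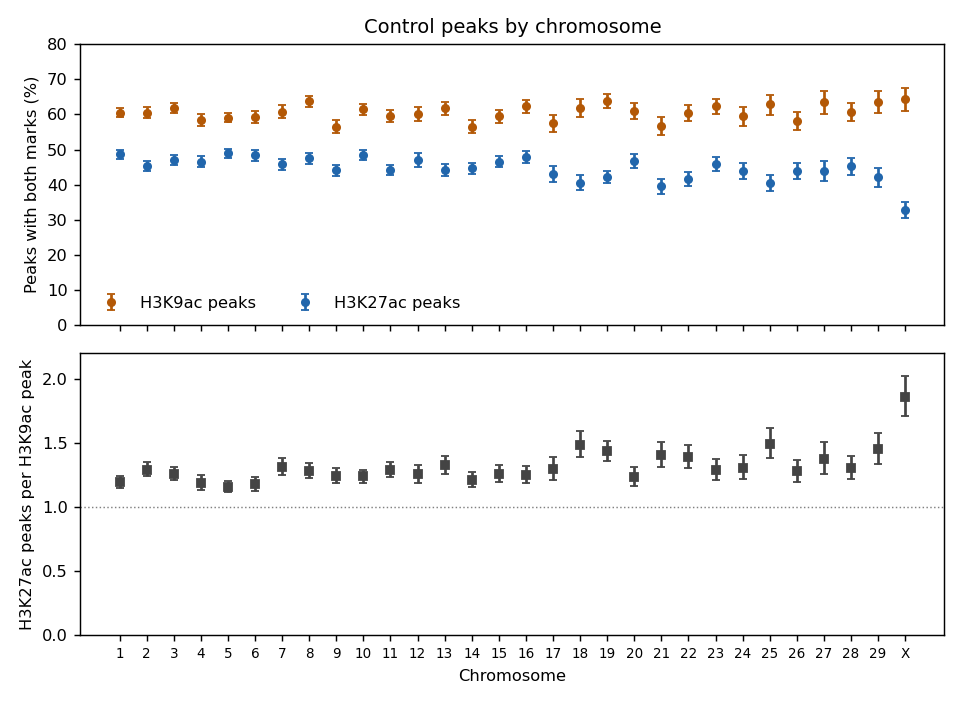
Percent of control peaks with both marks (upper panel) and number of H3K27ac peaks per H3K9ac peak (lower panel) for the 29 autosomes and the X chromosome, with 95% intervals. Autosomes lie between 56.4% and 63.8% for H3K9ac and between 39.5% and 48.9% for H3K27ac, and the X chromosome has the lowest H3K27ac share (32.7%) and the highest ratio (1.86).

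At the scale of 1 Mb the marks followed each other closely. Of 2677 windows, H3K27ac covered more bases in 2160, H3K9ac covered more in 285, and 231 had no peak of either. H3K27ac was the only mark in 165 windows and H3K9ac in 14. Across windows the covered bases had a Pearson r of 0.97 and a Spearman rho of 0.98. Windows within 1 library share its depth and its input and are not independent, so these values describe the pair of lists. The 268 windows with the most shared bases held 42.5% of all shared bases.

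The windows richest in both marks were on chromosomes 8 (from 40 Mb), 2 (from 36 Mb) and 1 (from 90 Mb), with 77.1 kb, 75.1 kb and 63.5 kb under both marks. The chromosome 8 window held 104 kb of H3K9ac and 138 kb of H3K27ac, from 223 and 253 peaks. H3K27ac exceeded H3K9ac most on chromosome 11 (from 25 Mb), with 102 kb against 59.6 kb. H3K9ac exceeded H3K27ac most on chromosome 5 (from 45 Mb), with 28.5 kb against 22.1 kb. The difference of H3K9ac minus H3K27ac was -42.2 kb in the chromosome 11 window and 6.37 kb in the chromosome 5 window. These windows held 23 and 70 control Pol II peaks and 10 and 49 control H3K9me3 peaks, in that order. The contrast did not hold for all named windows. Next in excess of H3K9ac, the chromosome 14 window (from 67 Mb) held 108 Pol II and 48 H3K9me3 peaks. The chromosome 10 window (from 42 Mb) held 23 and 10, as on chromosome 11. Next in excess of H3K27ac, the chromosome 8 window held 40 and 15, and that on chromosome 19 (from 14 Mb) held 25 and 7.

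The other 6 lists were then read at the same control peaks. They come from other libraries, but all were called against the same input, and control Pol II and control H3K9me3 also share the condition and lane of the acetyl libraries. Control acetyl peaks with both marks met the butyrate H3K27ac list far more often than single-mark peaks. Butyrate H3K27ac met 73.2% of all control H3K9ac peaks, with 85.1% for those with both marks and 55.0% for H3K9ac alone. It met 65.9% of all control H3K27ac peaks, with 85.2% for those with both marks and 49.7% for H3K27ac alone. Among H3K9ac peaks the gap narrowed with length, from 75.9% against 50.4% at 199 to 299 bp to 94.4% against 77.2% at 500 to 999 bp. At 1000 bp or more it was 99.1% (98.6 to 99.4%) against 96.2% (81.1 to 99.3%) for the 26 H3K9ac-alone peaks, and these intervals overlapped.

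The butyrate H3K9ac list met H3K9ac-alone peaks more often than H3K27ac-alone peaks. H3K27ac-alone peaks were chosen for lacking H3K9ac in control cells, so this difference partly repeats how the classes were formed. It met 48.6% of all control H3K9ac peaks, 54.6% of those with both marks and 39.6% of H3K9ac alone. It met 37.5% of all control H3K27ac peaks, 55.8% of those with both marks and 22.2% (21.8 to 22.6%) of H3K27ac alone. Within each length bin, H3K9ac peaks with and without H3K27ac differed less than over all lengths. At 199 to 299 bp the shares were 38.0% (37.3 to 38.7%) against 34.2% (33.5 to 34.8%). They were 52.7% against 49.6% at 300 to 499 bp and 72.9% against 65.8% at 500 to 999 bp. At 1000 bp or more they were 90.7% against 88.5% for the 26 H3K9ac-alone peaks. The wider gap over all lengths thus went in part with the longer peaks of the class with both marks. Among H3K27ac-alone peaks the share did not grow with length as it did for the other classes. It was 20.8% at 199 to 299 bp, 24.0% at 500 to 999 bp and 12.3% (7.31 to 19.9%) for the 106 peaks of at least 1000 bp, of which 83.0% (74.7 to 89.0%) met butyrate H3K27ac. Of the 5 longest H3K27ac-alone peaks, 4 met no butyrate H3K9ac peak, and all 5 met 1 to 3 butyrate H3K27ac peaks. By contrast, all 5 of the longest H3K9ac-alone peaks met both butyrate marks.

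Taking the 2 butyrate acetyl lists together, H3K9ac-alone peaks met both marks after butyrate in 28.8% of cases, H3K9ac only in 10.7%, H3K27ac only in 26.2% and neither in 34.3%. H3K27ac-alone peaks met both in 17.2%, H3K27ac only in 32.6%, H3K9ac only in 5.03% and neither in 45.2%. In each class, meeting only butyrate H3K27ac was thus more frequent than meeting only butyrate H3K9ac. For peaks with both marks these shares were 33.9% against 3.36% (H3K9ac) and 32.9% against 3.50% (H3K27ac). The butyrate H3K27ac list is the longest of the series (187475 peaks over 81.0 Mb), and its size favours meeting it. Control peaks with both marks met neither butyrate list in 11.5% (H3K9ac) and 11.3% (H3K27ac). Treatment and sequencing lane cannot be told apart, since control libraries ran on lane 4 and butyrate libraries on lane 5.

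The control and the butyrate Pol II lists were both read at the classes of control peaks. The control Pol II list met 7.11% of all control H3K9ac peaks, with 7.18% (6.94 to 7.42%) for those with both marks and 7.01% (6.72 to 7.31%) for H3K9ac alone. Within length bins the alone class was the higher up to 999 bp, at 6.08% against 4.11% for 199 to 299 bp and 8.59% against 6.02% for 300 to 499 bp. The near equality over all lengths thus went with the longer peaks of the class with both marks. The same list met 5.63% of all control H3K27ac peaks, with 7.34% for those with both marks and 4.21% for H3K27ac alone, and here the alone class was the lower in each length bin.

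The control Pol II list held 56240 peaks over 13.9 Mb and the butyrate Pol II list held 31240 over 8.49 Mb. The butyrate list met the classes with both marks more often than the single-mark classes of either mark. It met 15.6% of all control H3K9ac peaks, 20.6% of those with both marks and 8.17% of H3K9ac alone. It met 12.8% of all control H3K27ac peaks, 21.3% of those with both marks and 5.72% of H3K27ac alone. For peaks of at least 1000 bp with both marks the shares were 50.7% (48.7 to 52.6%) for H3K9ac and 43.2% (41.8 to 44.7%) for H3K27ac. At that length they were 23.1% (11.0 to 42.1%) for the 26 H3K9ac-alone peaks. For the 106 H3K27ac-alone peaks they were 8.49% (4.53 to 15.4%).

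The H3K9me3 lists, which mark repressed chromatin, met few acetyl peaks. Control H3K9me3 met 3.47% of all control H3K9ac peaks (3.38% with both marks and 3.60% alone) and 2.65% of all control H3K27ac peaks (3.44% and 1.99%). Butyrate H3K9me3 met 3.62% of all control H3K9ac peaks (3.01% and 4.54%) and 3.35% of all control H3K27ac peaks (3.12% and 3.55%). As for control Pol II, H3K9ac-alone peaks of 199 to 299 bp met control H3K9me3 more often (3.29%) than those with both marks (2.02%). The H3K9ac-alone class was thus the one that met control Pol II and control H3K9me3 more often at a given length up to 999 bp. The part of the shared input in this was not tested. Many windows of chromosome 5 were crowded with control Pol II and H3K9me3 peaks, such as 70 and 49 in that from 45 Mb. Among autosomes, H3K9ac-alone peaks were also densest on chromosome 5 (1.72), but so were H3K9ac (1.63) and H3K27ac (1.62) peaks with both marks. These shares were not recomputed without that chromosome.

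**Figure D5:**
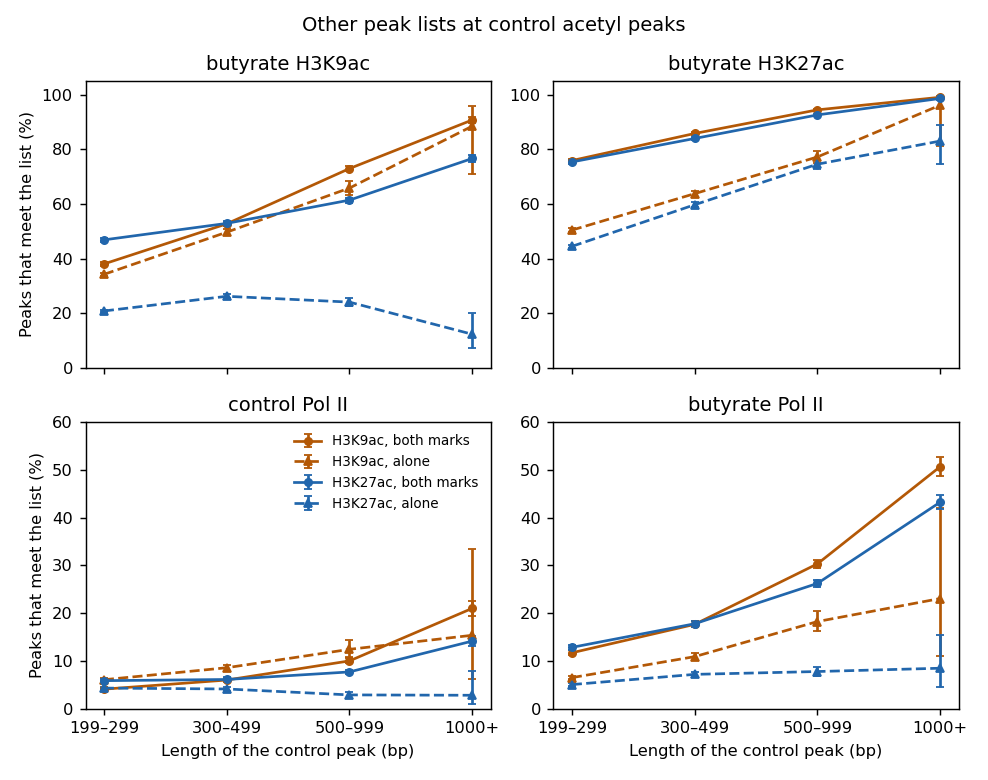
Percent of control H3K9ac and H3K27ac peaks, with both marks (solid lines) or alone (dashed lines), that met a peak of the list named above each panel (vertical axis), in 4 bins of control peak length in bp (horizontal axis), with 95% Wilson intervals. H3K27ac-alone peaks stay at or below 26.2% for butyrate H3K9ac, and H3K9ac-alone peaks lie above those with both marks for control Pol II up to 999 bp.

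The 2 marks were also set side by side in butyrate-treated cells. There H3K9ac peaks met H3K27ac in 61.7% of cases (61.4 to 62.0%) and H3K27ac peaks met H3K9ac in 34.9% (34.7 to 35.1%). One-to-one pairs had a median log2 width ratio of 0.48 (0.48 to 0.49), with 450 bp for H3K27ac and 293 bp for H3K9ac, and H3K27ac was wider in 75.1%. H3K9ac-alone peaks lay a median of 2.57 kb from H3K27ac and H3K27ac-alone peaks 1.84 kb from H3K9ac, the reverse of the order in control cells. With 1 library per condition these differences were not tested.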

How the data were processed

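ChIP-seq peak lists of control MDBK cells for H3K9ac and H3K27ac were compared, and the 6 other ChIP lists were read at their peaks. Per the methods, the authors aligned reads (75 nt) with BWA to UMD3.1.1, kept unique alignments, and called peaks per library with MACS2 at default settings against 1 MDBK input. The submitters' processing notes for these samples also name Trim Galore 0.4.1, without a role, and the build UMD3.1, while the methods state trimming for other data types only. The deposited values are peak starts and ends in bp, with no score, fold or signal. Starts were taken as 0-based, with 1 bp added for printing; the shortest length is 199 bp in all lists, so they may be 1-based. Rows are in 203 (H3K9ac) and 418 (H3K27ac) runs sorted by position, by a key not given in the sources used here.

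Peaks met when they shared at least 1 bp. Shares have Wilson and medians exact binomial 95% intervals, which treat peaks as independent. Chromosome span is the last peak end in any list. No test was run, since each group had 1 library, and read depth was not used. Named items were the 5 longest peaks per class, the 3 most extreme 1 Mb windows per quantity, the 2 most unequal pairs each way and the extreme chromosomes. The comparison, classes and lists were chosen with earlier results of these data known. The functions were tested on simulated data. The alternatives were a minimum length of 500 bp, merging of neighbouring peaks of a list at gaps below 1 kb, the 29 autosomes, omission of chromosomes 5 and 14, an overlap of 50%, meeting within 1 kb, lists of equal size, starts counted from 1 and, chosen after seeing the data, the leading 50% of the rows of each list. Python 3.11.15 with numpy 2.4.6, scipy 1.17.1 and matplotlib 3.10.9 was used. Genes and sequences are not reported, as no genome of this build was used here.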

Additional observations from a re-analysis of the deposited data

Results flagged for a closer look

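The order of the 2 marks in median peak length differed between conditions. The log2 ratio of H3K27ac to H3K9ac median length was -0.059 in control cells (288 bp against 300 bp) and 0.27 in butyrate-treated cells (326 bp against 271 bp). The share of peaks at the minimum length turned the other way. Its log2 ratio of H3K27ac to H3K9ac was 0.85 in control cells (14.8% against 8.20%) and -0.89 in butyrate-treated cells (7.04% against 13.1%). These differences between conditions were not tested, because each mark had 1 library per condition.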

How the results depend on the processing

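With 1 library per group, no replicate could be left out. No paired analysis was possible because a mark had a single library in each condition. Of 80 recomputed values, 29 stayed inside the interval of the value reported, 51 moved outside it and 0 reversed in sign. Values with autosomes only or with starts counted from 1 stayed inside. Without chromosomes 5 and 14, 43.3% of H3K27ac bases were shared and the log2 ratio of the numbers of single-mark peaks was 0.84. Depth limits what was listed, and its effect could not be measured from lists without scores.

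Results are given in the order H3K9ac with both, H3K27ac with both, H3K9ac bases shared, H3K27ac bases shared, log2 length ratio of H3K9ac and of H3K27ac with both over alone, log2 width ratio in pairs, gap of H3K9ac alone, gap of H3K27ac alone, and log2 ratio of the numbers of single-mark peaks. With peaks of at least 500 bp they were 63.9%, 47.8%, 60.3%, 42.6%, 0.27, 0.44, 0.14, 7765 bp, 7421 bp and 0.89. Here the longer gap belonged to H3K9ac alone. With peaks less than 1 kb apart joined they were 57.96%, 44.9%, 64.6%, 49.8%, 1.62, 2.18, 0.13, 2979 bp, 6370 bp and 0.67. With the H3K27ac list cut to the size of the H3K9ac list, longest kept, they were 55.7%, 52.4%, 54.98%, 47.1%, 0.57, 0.66, 0.18, 1951 bp, 1587.5 bp and 0.11. In the leading 50% of the rows of each list they were 58.3%, 42.9%, 59.3%, 41.9%, 0.68, 0.87, 0.20, 2345 bp and 2978 bp, and the last ratio stayed inside its interval.

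Requiring an overlap of 50% of the peak left 51.5% of H3K9ac and 36.3% of H3K27ac peaks with both marks, length ratios of 0.46 and 0.62, and a number ratio of 0.74. Counting a peak within 1 kb as meeting gave 76.96% and 65.8%, length ratios of 0.43 and 0.53, and a number ratio of 0.92.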

Other observations

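The row order of the lists went with the classes, as seen when each list was split into 10 bins of equal size from its first to its last row. Neither list was in order of position or length, and the key behind the order is not given in the sources used here. In the first bin of the H3K9ac list 92.3% of peaks had both marks, the fifth bin had the lowest share (41.3%), and the last had 53.2%. In the H3K27ac list the first bin had 85.1%, the seventh bin had the lowest share (27.04%), and the last had 35.3%. The median length fell from 556 bp in the first to 258 bp in the eighth bin of the H3K9ac list, and from 717 bp in the first to 224 bp in the seventh bin of the H3K27ac list. Among H3K9ac peaks under 300 bp the share was 76.8% in the first and 32.0% in the fifth bin. Among H3K27ac peaks under 300 bp it was 40.3% in the first, 29.4% in the second, 39.4% in the fourth and 18.6% in the sixth bin. The share thus differed along the order among short peaks too, less evenly for H3K27ac, though these peaks still varied in length. Of the 5 longest H3K9ac-alone peaks, 3 stood 88.6%, 89.8% and 90.5% of the way down their list, while the 5 longest H3K27ac-alone peaks all stood in the first 20% of theirs.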
